A study of Mus musculus with 6 samples.

Results

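The colony-stimulating factors and their receptors were taken as 9 genes by symbol, out of 18182 genes in the deposited tables: the ligand genes Csf1, Csf2 and Csf3, and the receptor genes Csf1r, Csf2ra, Csf2rb, Csf2rb2, Csf3r and Il3ra. The genes were chosen by their family and by the difference of their FPKM and counts between the groups, seen in these same libraries, so their levels and differences are described and no test is given for them. Cells came from tumours of Lewis lung carcinoma (LLC), a mouse lung cancer line, marked with red fluorescent protein (RFP) and injected under the skin of wild type C57BL/6 mice, either alone (LLC alone, 3 libraries) or together with bone marrow-derived mesenchymal stem cells (LLC with BMSCs, 3 libraries). The BMSCs were bought as cells of C57BL/6 origin, and the labels name the RFP mark for the LLC cells alone. RFP-positive cells were sorted by flow cytometry when the tumours had reached a set volume, and the labels do not say how many animals stand behind 1 library, so the spread between replicates may be technical. No agent other than the injected cells differed between the groups according to the labels.

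Colony-stimulating factors are secreted proteins that keep myeloid blood cells alive and make them divide and mature. Csf1 encodes M-CSF, which acts on macrophages through the receptor tyrosine kinase encoded by Csf1r, Csf2 encodes GM-CSF, and Csf3 encodes G-CSF, which acts on neutrophils and their precursors through Csf3r. The GM-CSF receptor joins an alpha chain, encoded by Csf2ra, to the common beta chain encoded by Csf2rb. In mice a paralog of the beta chain, Csf2rb2, serves the IL-3 receptor together with the alpha chain encoded by Il3ra. Tumour cells of many kinds secrete these ligands, while their receptors are known mainly from blood cells.

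Csf1 was the abundant gene of the family in both groups and was lower in LLC with BMSCs, whereas Csf3 was nearly undetected in LLC alone and was present in every library of LLC with BMSCs. The receptor genes Csf1r, Csf2ra, Csf2rb, Csf2rb2 and Csf3r were all higher in LLC with BMSCs, and none of them reached 1 FPKM in any library. Csf2 was low in both groups and was lower in LLC with BMSCs. FPKM is the number of fragments scaled to transcript length and library total, so that levels of different genes can be compared. With estimated counts, 8 of the 9 genes were measured well enough to be fitted, 6 of them higher and 2 lower at an adjusted p under 0.05 (edgeR quasi-likelihood test). Since 31.5% of all 13353 genes tested were called higher and 31.3% lower, nothing is read from that count. The FPKM ranges of the groups did not overlap for 6 genes that were higher and 2 that were lower, beside 37% and 33.7% of all genes tested, or 70.6% in either direction. Of the 6 called higher, 5 passed the filter on low counts only through LLC with BMSCs and so had to differ.

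**Figure D1:**
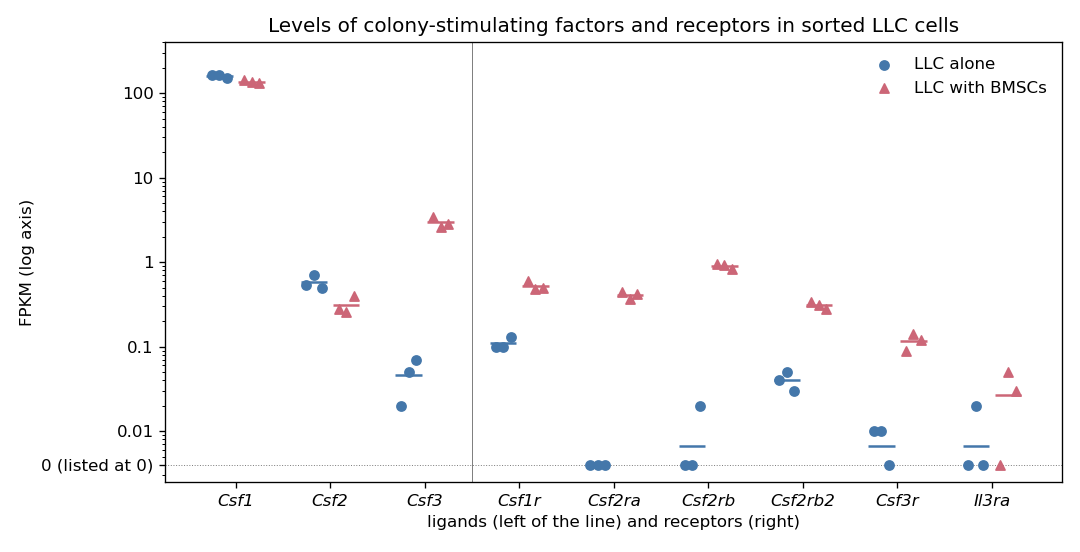
FPKM of the 9 genes in each library on a log axis, with circles for LLC alone, triangles for LLC with BMSCs, and short lines for the mean of each group. Csf1 lies between 132 and 163 FPKM in all 6 libraries, Csf3 and 5 receptor genes sit higher in LLC with BMSCs without overlap, and libraries without a fragment are drawn on the dotted line.

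The 6 libraries held between 33476347 and 46189113 estimated fragments on genes, with the lowest total in LLC alone replicate 2. LLC alone replicate 3 stood apart from the other libraries of its group: the chi-square per gene was 60.4 and 58.5 against replicates 1 and 2, which differed from each other by 4.79. LLC with BMSCs replicate 1 stood apart to a lesser extent, with 19.6 and 19.1 against replicates 2 and 3, which differed by 3.03. CPM values here are counts scaled to effective library size, the normalized total of the genes tested. The keratin gene Krt8, an epithelial marker, had a mean of 166.6 CPM in LLC alone and 189.5 CPM in LLC with BMSCs. Krt19 had no count in LLC alone. The summed level of 5 leukocyte markers was 1.11 to 1.34 CPM in LLC alone and 10.6 to 11.3 CPM in LLC with BMSCs, and that of 9 neutrophil markers 0.429 to 0.762 CPM and 22.9 to 25.8 CPM. In bulk libraries of this kind, fewer cells of a type and less RNA per cell cannot be told apart.

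Csf1, the M-CSF gene, had FPKM values of 162.4, 163.1 and 150.0 in LLC alone and of 145.0, 135.3 and 132.2 in LLC with BMSCs. Every library of LLC with BMSCs was below every library of LLC alone, by a small margin between the lowest and the highest of the groups. The means were 158.5 ± 7.38 and 137.5 ± 6.69 FPKM (SD, n = 3), and the fitted log2 difference was −0.20 with a standard error of 0.067, which is 12.8% lower. The gene ranked between place 465 and 581 by FPKM in the 6 libraries. Once the trend of each library over transcript length was removed, the log2 difference of Csf1 was −0.28.

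Csf1 mRNA came in 3 forms in the deposited transcript tables, of which the second most abundant, a short coding form, was lower in every library of LLC with BMSCs. The long coding form, NM_007778, had FPKM values of 120.4, 125.0 and 101.2 in LLC alone and of 121.3, 111.1 and 107.3 in LLC with BMSCs, so its ranges overlapped. The short coding form, NM_001113529, stood at 35.97, 28.16 and 43.46 FPKM in LLC alone against 15.80, 16.56 and 17.55 with BMSCs, without overlap. It made up 19.3% ± 5.13 of the estimated Csf1 fragments in LLC alone and 10.04% ± 1.02 in LLC with BMSCs (SD, n = 3). The mean of the whole gene was 20.997 FPKM higher in LLC alone, and the means of the short and the long form were 19.2 and 2.30 FPKM higher. LLC alone replicate 3 had the highest share, 24.7%, and the lowest level of the long form. Without it, the whole gene was 25.3 FPKM higher in LLC alone, the short form 15.4 FPKM and the long form 9.47 FPKM, so that the short form took up 61.1% of the difference in place of 91.6%. The short form was 1.93-fold higher in LLC alone without that library, against 2.16-fold with it.

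These forms differ in what they encode, and the place where they part is shown because the ranges of the short form did not overlap between the groups. The long form encodes 552 codons and the short form 257, as read from the GENCODE M21 models on GRCm38. An exon on chromosome 3 (minus strand) spans chr3:107748154-107749169, 1016 bases, in the long form and chr3:107748154-107748284, 131 bases, in the short form, which thereby lacks 885 coding bases. In background terms, the long form is cut to a secreted protein, and the short form lacks the stretch where it is cut and stays longer at the cell surface. Coding bases 515 to 574 of each form are printed 5′ to 3′, with capitals for the bases that follow the shortened junction:
short form: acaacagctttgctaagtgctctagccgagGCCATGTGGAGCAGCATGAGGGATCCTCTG
long form: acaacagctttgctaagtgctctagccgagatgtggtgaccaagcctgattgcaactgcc
The first 30 bases are shared, after which the short form goes on with sequence that the long form reaches 885 bases later. The deposited values divide fragments among the forms by estimation, and reads over the junction were not counted here. A further form, NM_001113530, has the same coding sequence as the long form and another last exon, and measured 7.12 ± 2.53 FPKM in LLC alone and 7.63 ± 0.266 with BMSCs.

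**Figure D2:**
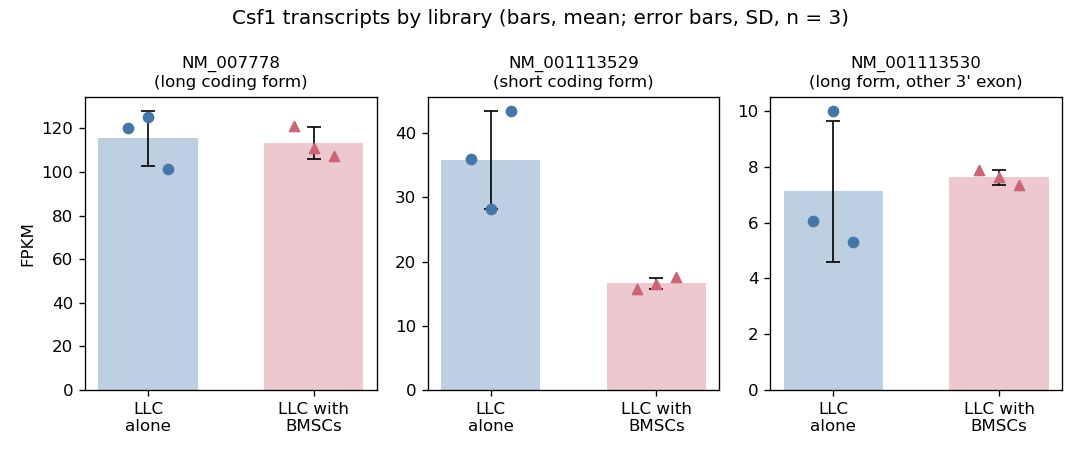
FPKM of the 3 Csf1 transcripts in each group, with bars for the mean, error bars for the SD (n = 3) and points for the libraries, on a separate axis for each transcript. The short coding form lies between 28.2 and 43.5 FPKM in LLC alone and between 15.8 and 17.6 with BMSCs, while the other forms overlap between the groups.

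Csf2, the GM-CSF gene, had 24, 23 and 22 counts in LLC alone and 12, 11 and 17 counts in LLC with BMSCs. All libraries of LLC with BMSCs were below those of LLC alone, and with so few fragments the size of the difference is loosely set. The levels were 0.583 ± 0.112 and 0.313 ± 0.0757 FPKM (SD, n = 3). The ratio of counts, scaled to library size, was 0.543 with a 95% exact Clopper-Pearson interval of 0.358 to 0.813, which like all intervals here covers counting error only.

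Csf3, the G-CSF gene, had 1, 2 and 4 counts in LLC alone and 200, 149 and 160 counts in LLC with BMSCs. The lowest library of LLC with BMSCs was far above the highest of LLC alone, at levels of 2.97 ± 0.443 and 0.0467 ± 0.0252 FPKM (SD, n = 3). The ratio was 68.1 with an interval of 32.8 to 170.2, the wide range being set by the 7 counts of LLC alone. A log2 difference of at least 2 in this direction was found for 4.01% of all genes tested. In LLC with BMSCs the gene ranked between place 9079 and 9542 by FPKM, so it remained a gene of low level there.

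The 3 ligands together were made up almost wholly of Csf1. Its share of their summed FPKM was 99.5% to 99.7% in LLC alone and 97.5% to 97.9% in LLC with BMSCs. In LLC alone the order of ligand levels was Csf1, Csf2 and Csf3, and in LLC with BMSCs it was Csf1, Csf3 and Csf2, with no overlap between neighbouring ligands in either group.

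**Figure D3:**
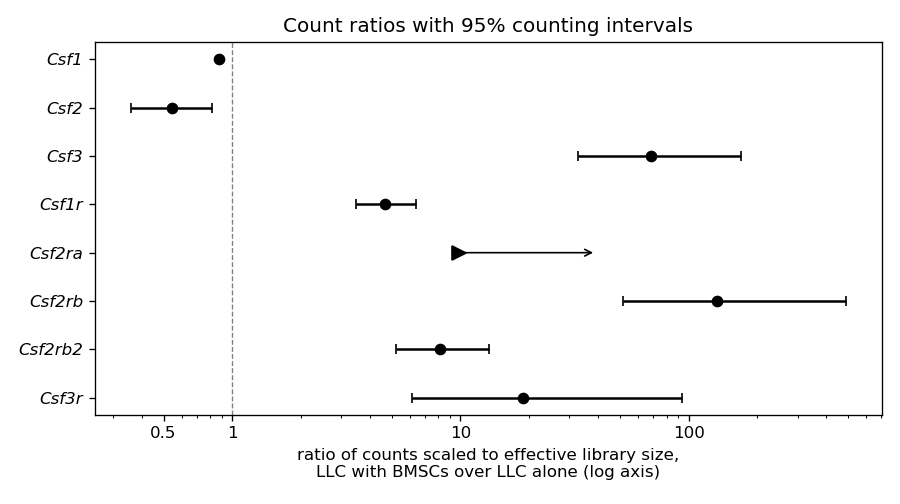
Ratio of counts in LLC with BMSCs over LLC alone on a log axis, for the 8 genes fitted, with points for the ratio scaled to effective library size and bars for its 95% counting interval. Csf1 and Csf2 lie below 1, 5 genes lie above 1, and the triangle with an arrow marks the lower bound for Csf2ra, which had no count in LLC alone.

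Csf1r, the M-CSF receptor, was the one receptor with more than 10 counts in every library of LLC alone. It had 18, 13 and 22 counts there and 101, 80 and 84 counts in LLC with BMSCs. The levels were 0.110 ± 0.0173 and 0.527 ± 0.0643 FPKM (SD, n = 3), and the groups did not overlap. The log2 difference was 2.22 with a standard error of 0.18.

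Csf2ra, the alpha chain that binds GM-CSF, had no count in any library of LLC alone and 35, 29 and 33 counts in LLC with BMSCs. Its level there was 0.410 ± 0.0361 FPKM (SD, n = 3). Set against a floor of 3 counts per library, which a count of 0 allows, it was at least 9.87-fold higher in LLC with BMSCs.

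Csf3r, the G-CSF receptor, had 1.99, 1 and 0 counts in LLC alone and 16.05, 23.01 and 20.97 counts in LLC with BMSCs. Its level of 0.117 ± 0.0252 FPKM (SD, n = 3) was the lowest of the receptors that were present in every library of LLC with BMSCs. The ratio was 18.7 with an interval of 6.11 to 93.3. Il3ra, the alpha chain of the IL-3 receptor, had 0, 1 and 0 counts in LLC alone and 0, 3 and 2 counts in LLC with BMSCs, at or under the floor in both groups, so that no fold is given.

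Csf2rb, the common beta chain, had 0, 0 and 3.71 counts in LLC alone and 201.97, 193.49 and 173.49 counts in LLC with BMSCs. It was the highest of the receptor genes in LLC with BMSCs, at 0.910 ± 0.0625 FPKM (SD, n = 3). The ratio to LLC alone was 133.2 with an interval of 51.7 to 490.4, and it rests on the 3.71 counts of LLC alone replicate 3. Without that library the fitted log2 difference moved from 6.93 to 10.50, since no count was left in LLC alone.

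Csf2rb2, the paralog that serves the IL-3 receptor, had 9, 7 and 6.28 counts in LLC alone and 70.03, 62.51 and 58.37 counts in LLC with BMSCs. The groups did not overlap, with levels of 0.040 ± 0.010 and 0.310 ± 0.0300 FPKM (SD, n = 3). The ratio was 8.13 with an interval of 5.21 to 13.3. In LLC alone, the fragments of Csf2rb2 were all assigned to NM_001287389, a form that lacks 327 coding bases. In LLC with BMSCs, the longer form NM_007781 took 100%, 60.0% and 100% of them. With 9 or fewer fragments per library in LLC alone, the difference in forms was not resolved at this depth.

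The beta chain genes are near copies, which bears on how fragments were divided between them. Their coding sequences were identical at 2505 of 2631 aligned bases, or 95.2%, with a longest identical run of 242 bases. Of the 100-base windows of NM_007781, 7.20% occur without a mismatch in the Csf2rb transcript, so a single 100-base read from there could belong to either gene. Whether the other read of the pair would tell the genes apart was not tested. The stretch printed next was picked as the gap-free 120-base window with the most differing bases, so it is less alike than the whole. A 120-base stretch of each coding sequence (GENCODE M21, GRCm38, chromosome 15) is printed to show where they can be told apart, with the 22 bases that differ in capitals:
Csf2rb, coding bases 309 to 428: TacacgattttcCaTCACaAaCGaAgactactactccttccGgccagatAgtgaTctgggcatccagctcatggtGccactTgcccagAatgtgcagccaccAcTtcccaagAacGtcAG
Csf2rb2, coding bases 312 to 431: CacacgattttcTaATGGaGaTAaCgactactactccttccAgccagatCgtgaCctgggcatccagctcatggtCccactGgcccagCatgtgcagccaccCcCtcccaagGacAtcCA
The summed counts of the genes came to 9, 7 and 9.99 in LLC alone and 272, 256 and 231.86 in LLC with BMSCs, which does not depend on the division. The summed ratio was 27.4 with an interval of 18.5 to 42.2, between the ratios of the single genes. Csf2rb took 74.3%, 75.6% and 74.8% of the summed counts in LLC with BMSCs, and 0%, 0% and 37.1% in LLC alone, where the sums are too small to give a stable share.

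**Figure D4:**
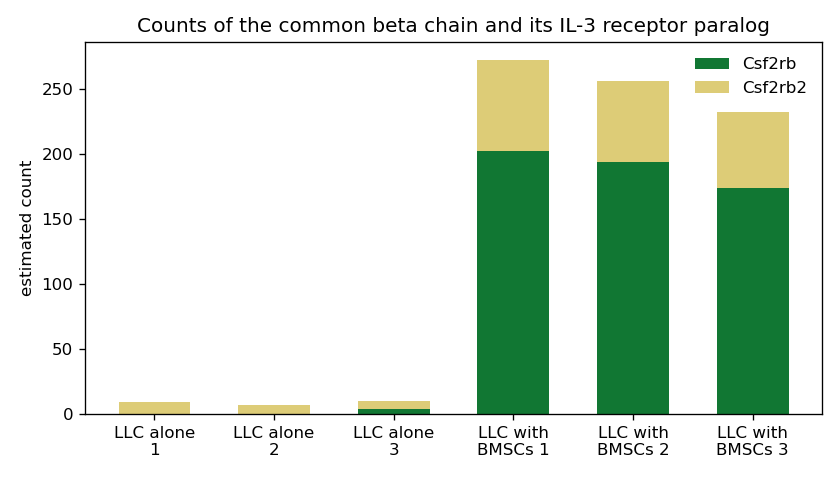
Estimated counts of Csf2rb and Csf2rb2 stacked for each library. The sums lie between 7 and 10 counts in LLC alone and between 232 and 272 counts in LLC with BMSCs, and Csf2rb is the larger portion in each library of LLC with BMSCs.

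In sum over the 6 receptor genes, the FPKM was 0.15 to 0.18 in LLC alone and 2.19 to 2.43 in LLC with BMSCs. Csf1 was 833 to 1083 times this sum in LLC alone and 59.3 to 60.4 times in LLC with BMSCs. In LLC with BMSCs the order of receptor levels was Csf2rb, Csf1r, Csf2ra, Csf2rb2, Csf3r and Il3ra, and no neighbours in that order overlapped in their ranges over the libraries. In LLC alone, Csf1r stood above Csf2rb2, Csf2ra was at 0, and the values of Csf2rb, Csf3r and Il3ra overlapped between 0 and 0.02 FPKM.

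Some markers of blood cells, mainly of the leukocyte and neutrophil lists, were higher together with the receptor genes in these cells sorted on RFP. Ptprc, which encodes the leukocyte antigen CD45, had 3, 8 and 8 counts in LLC alone and 96, 112 and 103 counts in LLC with BMSCs, a level near that of Csf2ra at 0.41 to 0.49 FPKM. All 5 leukocyte markers and all 7 neutrophil markers that could be tested were called higher (edgeR quasi-likelihood test), but 3 and 6 of them passed the filter on low counts only through LLC with BMSCs and so had to differ. Such genes were 3.83% of all genes tested, and 31.5% of all genes tested were called higher. S100a9, a calcium-binding protein of neutrophils, had 434, 421 and 522 counts in LLC with BMSCs against 0, 1 and 0. Coro1a, an actin-binding protein, led the leukocyte list at 0.634 and 2.73 CPM, and Cd52 had no count in LLC alone. Mpo, Elane and Mmp8, which mark neutrophils and their precursors, had no count in LLC alone, while Ly6g, a surface marker of mature neutrophils, had 4, 3 and 1 counts in LLC alone and 3, 1 and 1 in LLC with BMSCs. Of 12 macrophage markers, 7 could be tested, 4 were higher (3 of them tested only through LLC with BMSCs) and 2 lower, with a summed level of 24.2 to 29.1 CPM in LLC alone and 31.8 to 34.5 CPM in LLC with BMSCs. Adgre1, which encodes the macrophage antigen F4/80, had 0, 0 and 0 counts in LLC alone and 60, 79 and 63 counts in LLC with BMSCs, while Cd14, the most abundant marker of that list, was at 15.4 and 16.1 CPM. The macrophage markers called lower were Cd68, with 283, 215 and 337 counts in LLC alone and 181, 141 and 157 in LLC with BMSCs, and Cx3cr1, with 24, 22 and 27 against 8, 9 and 9. C1qa and C1qc had no count in LLC alone and at most 3 counts in a library of LLC with BMSCs. The part of such cells in the levels of the receptors and of Csf3 was not tested.

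The lists for other cell types did not share a direction. The summed lymphocyte markers were 0.30 to 0.373 CPM in LLC alone and 0.247 to 0.359 CPM in LLC with BMSCs, and Cd8a was the most abundant of the list at 0.191 and 0.113 CPM. The dendritic cell list, led by Cd74, was 7.43 to 9.15 CPM in LLC alone and 5.93 to 6.48 CPM in LLC with BMSCs. The list for mast cells, basophils and eosinophils was 0.330 to 0.570 and 1.34 to 1.42 CPM, led by Prg2. BMSC and fibroblast markers were 493.6 to 574.1 CPM in LLC alone and 1015 to 1062 CPM in LLC with BMSCs. All 11 tested were called higher, beside 31.5% of all genes tested, and 3 of them were tested only through LLC with BMSCs. Their log2 differences ran from 0.26 for Eng to 7.14 for Col1a1. Col3a1, a fibrillar collagen, led that list at 228.1 and 546.4 CPM, and Cxcl12 and Thy1 had no count in LLC alone. Endothelial markers, led by Pecam1 and with Emcn at 0 in LLC alone, were 1.07 to 1.29 and 1.33 to 1.82 CPM. Epithelial markers were 157.9 to 179.3 and 187.7 to 195.6 CPM, almost wholly Krt8 with means of 166.6 and 189.5 CPM. Epcam had 4, 1 and 4 counts in LLC alone and 1, 1 and 0 with BMSCs, and Cdh1 and Krt7 had 5 or fewer in any library. Krt18 had 2, 4 and 8 counts in LLC alone and 41, 37 and 37 with BMSCs.

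The receptor genes Csf2ra, Csf2rb2 and Csf3r, which were higher together, are also shown by the 250 bases before their start sites, from RefSeq on GRCm38.p6, since the core GAGGAA bound by the myeloid factor PU.1 is a textbook feature of such promoters. The core was searched on both strands and is in capitals where found, as TTCCTC where it lies on the other strand:
Csf2ra, chr19:61228419-61228668, minus strand: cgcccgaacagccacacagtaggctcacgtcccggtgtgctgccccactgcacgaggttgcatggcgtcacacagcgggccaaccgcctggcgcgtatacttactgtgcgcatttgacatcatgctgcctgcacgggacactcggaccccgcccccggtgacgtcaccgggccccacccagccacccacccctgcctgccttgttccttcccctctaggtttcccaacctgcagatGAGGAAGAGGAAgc
Csf2rb2, chr15:78305722-78305971, minus strand: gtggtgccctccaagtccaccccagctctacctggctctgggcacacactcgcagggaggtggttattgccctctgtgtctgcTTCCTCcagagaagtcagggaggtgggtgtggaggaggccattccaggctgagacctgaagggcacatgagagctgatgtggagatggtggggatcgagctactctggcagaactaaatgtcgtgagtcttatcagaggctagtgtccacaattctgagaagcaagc
Csf3r, chr4:126024409-126024658, plus strand: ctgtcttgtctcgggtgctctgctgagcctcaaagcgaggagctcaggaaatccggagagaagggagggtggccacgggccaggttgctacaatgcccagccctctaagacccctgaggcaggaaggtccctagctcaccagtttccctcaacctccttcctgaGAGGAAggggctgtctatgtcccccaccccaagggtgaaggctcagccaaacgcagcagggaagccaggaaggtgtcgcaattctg
The Csf2ra window held the core at −14 and at −8 bases from the start, the Csf2rb2 window at −167 and the Csf3r window at −86. The windows of Csf1, Csf2 and Il3ra held none. No window of Csf1r, Csf2rb or Csf3 was searched, so nothing is said of these genes. The core occurs in 23.3% of 32851 promoter windows of that length, so these matches are a description of the letters and not of binding. Among other motifs, the STAT palindrome TTCNNNGAA, present in 7.02% of windows, occurred in that of Csf2rb2 at −15. The TATA box TATAAA, present in 12.4%, occurred in none of the 6.

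Spi1, the gene of PU.1, had 0, 0 and 3 counts in LLC alone and 53, 25 and 43 counts in LLC with BMSCs. It belongs to a list of 66 genes around these receptors, which comprised other ligands and receptors, kinases and STATs, adaptors, inhibitors, targets, and regulators of the ligand mRNAs. Of the list, 65 genes were analysed here and 61 could be tested. The edgeR quasi-likelihood test called 32 of them higher in LLC with BMSCs, 9 lower and 20 neither, which is 52.5% higher against 31.5% of all genes tested, and 14.8% lower against 31.3%. Of the 32, 7 passed the filter on low counts only through LLC with BMSCs and so had to differ. The median log2 difference of the list was 0.35, beside 0.01 over all genes tested. Counts by role, given below, stand beside the same shares of all genes tested, 31.5% higher and 31.3% lower.

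**Figure D5:**
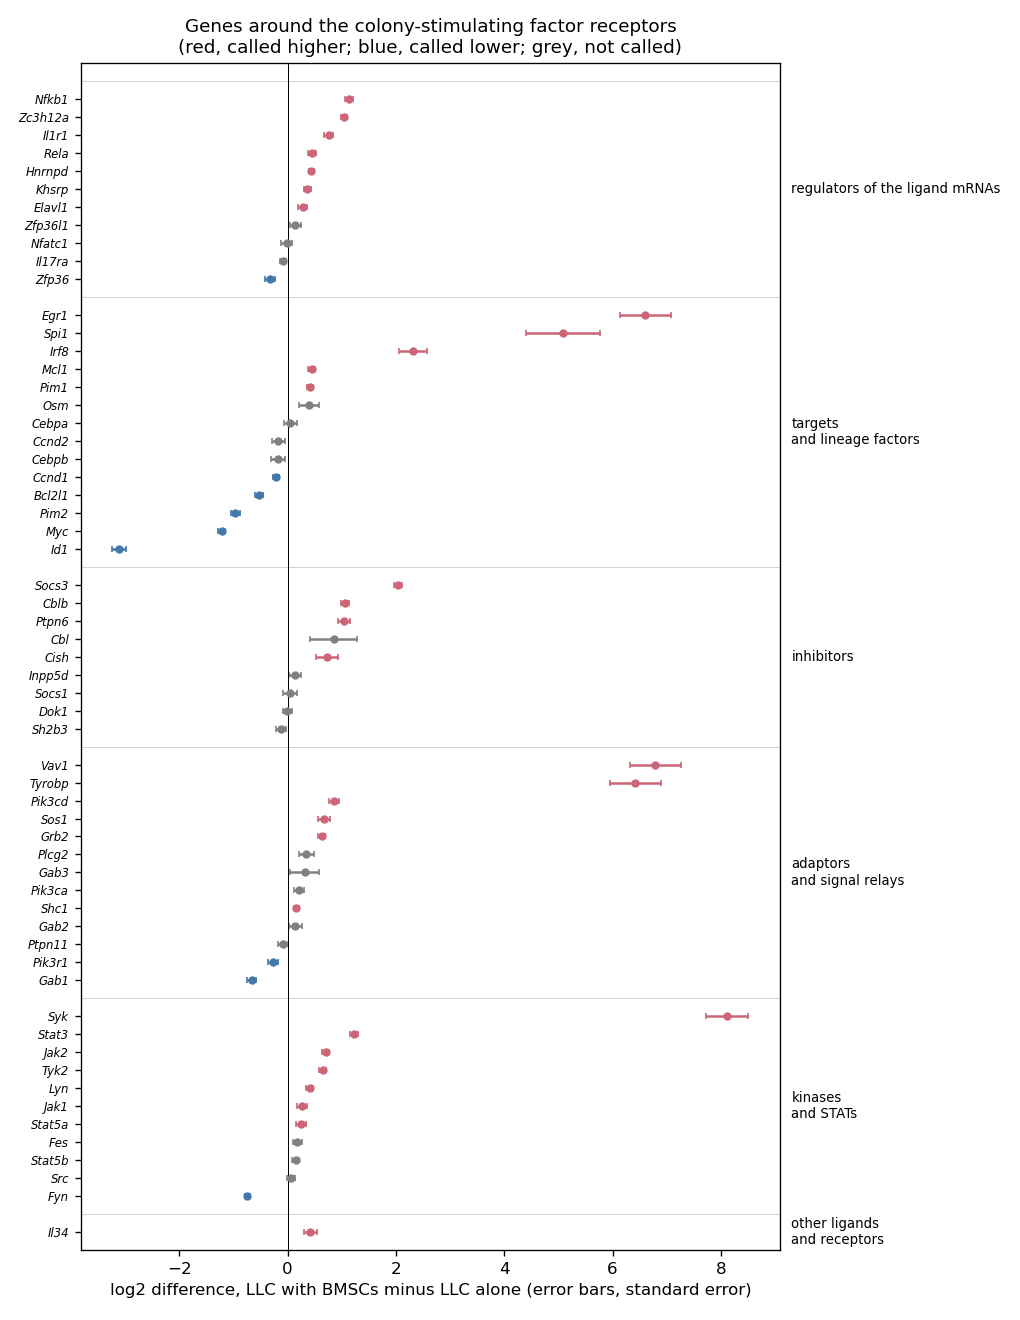
Log2 difference of 59 tested genes around the receptors, LLC with BMSCs minus LLC alone, with bars for the standard error, ordered by role and coloured by the edgeR call. Values above 4 belong to genes with 4 or fewer counts in each LLC alone library and have no firm size, whereas Stat3 and Socs3 are higher and Myc and Id1 lower at levels well above 1 FPKM.

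Among the other ligands, Il34, which encodes a further ligand of the M-CSF receptor, measured 1.48, 1.47 and 1.89 FPKM in LLC alone and 2.03, 2.06 and 2.46 with BMSCs. It was higher with a log2 difference of 0.42, a standard error of 0.12 and an adjusted p of 0.0171 (edgeR quasi-likelihood test, Benjamini-Hochberg). Il5, the ligand that shares the common beta chain, had 7 or fewer counts in any library and its receptor Il5ra under 2. Il3 itself was not analysed here.

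Of 13 kinases and STATs, which carry the signal from the receptors to the nucleus, 9 were higher, 1 lower and 3 not called. Stat3, the main STAT of the G-CSF receptor, measured 11.4, 12.15 and 10.47 FPKM in LLC alone and 27.75, 26.25 and 26.43 with BMSCs. Its log2 difference was 1.22 with a standard error of 0.070 and an adjusted p of 5.88e-06 (edgeR quasi-likelihood test). Jak2, the kinase that is bound to the common beta chain, was higher by 0.70, with levels of 4.96 ± 0.393 and 8.17 ± 0.136 FPKM (SD, n = 3) and an adjusted p of 8.68e-05 by edgeR. Stat5a and Stat5b, the main STATs of the GM-CSF receptor, share sequence and had fractional counts in all 6 libraries. Stat5a differed by 0.25 (adjusted p = 0.0386, edgeR) and Stat5b by 0.15 (adjusted p = 0.0778), and with the length trend removed Stat5a had an adjusted p of 0.0655. Fyn, a Src family kinase, was lower by 0.74 on the log2 scale (edgeR adjusted p = 1.77e-05) at 16.3 and 9.91 FPKM.

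Adaptors and signal relays were called higher in 6 of 13 cases and lower in 2. Tyrobp, the adaptor DAP12 of myeloid cells, had 1, 0 and 0 counts in LLC alone and 38, 44 and 42 counts in LLC with BMSCs, and was tested only through the latter. Gab1, a docking protein below receptor tyrosine kinases, was lower, at 52.2 ± 5.34 and 33.5 ± 0.769 FPKM (SD, n = 3) with an edgeR adjusted p of 0.000257. Genes of the list known mainly from blood cells and under 0.1 FPKM in each LLC alone library, singled out after their values were seen, included Syk, Tyrobp, Vav1, Spi1 and Irf8. These 5 genes reached 0.26 to 1.95 FPKM in LLC with BMSCs, where the receptors lay between 0 and 0.96 FPKM. Without them, 27 of 56 tested genes of the list were called higher, and the median log2 difference was 0.27.

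Inhibitors of these receptors were higher in 4 of 9 tested cases and lower in none at this threshold. Socs3, which shuts off signalling from the G-CSF receptor, measured 7.17, 7.37 and 8.05 FPKM in LLC alone and 33.28, 31.03 and 30.19 with BMSCs, with a log2 difference of 2.04 and an edgeR adjusted p of 6.64e-07. Cblb, a ubiquitin ligase, was higher by 1.07 (edgeR adjusted p = 1.31e-05) and Ptpn6, the phosphatase SHP-1, by 1.04 (edgeR adjusted p = 0.000145). Cish, a target of STAT5, was higher by 0.73 (edgeR adjusted p = 0.0151) at 0.333 and 0.567 FPKM. Inpp5d, the lipid phosphatase SHIP1, was present in LLC alone at 4.22 ± 0.556 FPKM and in LLC with BMSCs at 4.68 ± 0.441 FPKM (SD, n = 3), and the groups overlapped. Cbl, the ubiquitin ligase of the M-CSF receptor, measured 7.48, 7.02 and 1.74 FPKM in LLC alone, the lowest in replicate 3, and 10.53, 9.59 and 9.39 with BMSCs, and was not called.

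Targets and lineage factors were called higher in 5 of 14 cases and lower in 5, beside 31.5% and 31.3% of all genes tested. Nothing is read from these counts. Myc, a growth gene induced by M-CSF and GM-CSF in myeloid cells, measured 677.3, 686.2 and 686.9 FPKM in LLC alone and 321.5, 283.6 and 287.9 with BMSCs, lower by 1.22 on the log2 scale (edgeR adjusted p = 4.80e-06). Id1, which encodes an inhibitor of DNA binding, fell from 98.8 ± 16.0 to 11.7 ± 0.718 FPKM (SD, n = 3, edgeR adjusted p = 1.21e-06). The survival gene Mcl1 was higher by 0.45 (edgeR adjusted p = 0.000480), whereas Bcl2l1, which encodes BCL-XL, fell by 0.52 (edgeR adjusted p = 0.000548). The kinase genes Pim1 and Pim2, both STAT targets, went in opposite directions, at 0.42 and −0.96 on the log2 scale, and both were called. Cebpa and Cebpb, lineage factors of granulocytes, were present in both groups with overlapping ranges, Cebpb at 45.8 ± 8.48 and 41.2 ± 2.63 FPKM (SD, n = 3).

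Regulators of the ligand mRNAs were higher in 7 of 11 cases and lower in 1. Of those higher, Elavl1 and Hnrnpd were not past the threshold once the length trend was removed (edgeR adjusted p = 0.860 and 0.129). Nfkb1, a subunit of NF-kB, which drives Csf2 and Csf3 in many cells, measured 30.1 ± 2.04 and 66.7 ± 3.02 FPKM (SD, n = 3), a log2 difference of 1.13 (edgeR adjusted p = 9.40e-06). Il1r1, the receptor of IL-1, which induces Csf3, was higher by 0.76 (edgeR adjusted p = 0.000101), while Il17ra overlapped between the groups. Zc3h12a, the gene of the RNase Regnase-1 that degrades inflammatory mRNAs, measured 10.58, 10.46 and 10.01 FPKM in LLC alone and 22.29, 21.3 and 21.07 with BMSCs (edgeR adjusted p = 4.60e-06). Zfp36, which encodes tristetraprolin, a protein that destabilises Csf2 mRNA, was lower by 0.32 on the log2 scale (edgeR adjusted p = 0.0140), and with the length trend removed its adjusted p was 0.0596.

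The neighbours of the genes on the chromosomes did not share 1 pattern. Psmd3 and Med24 flank Csf3, and had log2 differences of 0.32 (edgeR adjusted p = 0.00190) and −0.03 (edgeR adjusted p = 0.668). The fitted log2 difference of Csf3 was 6.02, which rests on 7 counts in LLC alone. P4ha2, a collagen prolyl hydroxylase next to Csf2, rose from 8.42 ± 0.687 to 22.8 ± 0.447 FPKM (SD, n = 3, edgeR adjusted p = 3.45e-06), opposite in direction to Csf2. Ahcyl1 beside Csf1 differed by 0.14 (edgeR adjusted p = 0.0799), and Pdgfrb beside Csf1r, a receptor of mesenchymal cells, was higher by 0.41 (edgeR adjusted p = 0.0121). Ncf4, a subunit of the phagocyte oxidase next to Csf2rb2, had a mean of 0.090 FPKM in LLC alone and 0.717 with BMSCs, a log2 difference of 2.92 (edgeR adjusted p = 2.83e-05) that was near that of Csf2rb2, 3.00. Mrps15 beside Csf3r differed by 0.06 (edgeR adjusted p = 0.620), and Hmgxb3 beside Csf1r by 0.16 (edgeR adjusted p = 0.121). Gm7102 beside Csf2ra was higher by 1.02 (edgeR adjusted p = 0.0161), and Slc4a7 beside Il3ra by 1.32 (edgeR adjusted p = 0.000123). Eps8l3 beside Csf1 and Grik3 beside Csf3r were too low to be tested.

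Csf1 and Csf3 alone reached a group mean of 1 FPKM, and for these the genes most alike over the 6 libraries were sought among 10509 genes by the Pearson correlation of log2(FPKM + 1). The libraries share their group, so a likeness mostly restates the difference between the groups. For Csf1 they were Galnt2 (0.997), Iba57 (0.996) and Slc39a6 (0.995), and 2.25% of genes had a value of at least 0.95. For Csf3 they were Chst2, Rbm10 and Oas2, at 0.9999, 0.9996 and 0.9996, and 15.9% of genes reached 0.95.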

How the data were processed

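RNA of sorted LLC cells was measured in 6 libraries, and groups and replicate numbers were taken from the labels. Per gene and per transcript, the authors deposited estimated counts, raw and often fractional, and FPKM values. The submitters' processing notes name HISAT, StringTie, Cufflinks, GATK and the build mm8 without roles. The methods describe paired reads on the BGISEQ-500 platform, whereas the labels name Illumina protocols. Whether counting used the strand is not given in the sources used here. Fragments that match near-identical genes are divided by estimation, which bears on Csf2rb and Csf2rb2.

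Genes were chosen by symbol. The members, gene lists and tests were chosen with earlier results of these data known. Estimated counts were rounded and fitted with edgeR 4.0.16 in R 4.3.3 (TMM, default filter on low counts, quasi-likelihood test, Benjamini-Hochberg over 13353 genes, threshold 0.05). P-values measure only the spread between these libraries. An exact permutation test of 3 against 3 cannot go below 0.1. Count ratios were scaled to effective library size with exact intervals at 95%, and a floor of 3 counts per library was used for groups at 0. Both cover counting error only. Named genes were all members, Il34, Il3, Il5, Il5ra, listed genes with at least 1 FPKM in every library of a group and a log2 difference of at least 1, the nearest protein-coding neighbours, and the genes most like Csf1 and Csf3. Other listed genes were named after their values were seen. Some listed genes are counted but not reported singly here. Transcript models came from GENCODE M21 and promoters from RefSeq, both on GRCm38. No coordinates of the authors' build were used. Alternatives were DESeq2 1.42.0, other scalings and filters, limma 3.58.1 on log2(FPKM + 1) and log2(FPKM + 0.1), each library left out, a replicate block, removal of length trends, a stricter threshold and summed beta chain counts. The edgeR step and the length step were tested on simulated data.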

Additional observations from a re-analysis of the deposited data

How the results depend on the processing

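Low counts limit the receptors, Csf2 and Csf3, whose ratios carry wide counting intervals, and the estimated division of fragments limits Csf2rb, Csf2rb2 and the Csf1 forms. At an adjusted p under 0.001 and a log2 difference of at least 1, the genes around the receptors came to 14 higher and 2 lower, and all genes tested to 910 higher and 723 lower. Leaving out each library in turn gave 27 to 33 and 6 to 12 for the genes around the receptors, and 3617 to 4736 and 3581 to 4539 for all genes tested. The lower count of 6 came without LLC with BMSCs replicate 3. With a replicate block these counts were 32, 9, 4161 and 4058, and with the length trend removed 30, 12, 4758 and 4573. Libraries with the same number deviated together with correlations of 0.076, −0.106 and 0.057, so the numbers were not taken to pair them, and not every library correlated best with its own number. Upper-quartile scaling called 3969 genes higher and 4404 lower.

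The direction of each fitted member was kept in 105 of 105 comparisons with an alternative. The value for the summed beta chains was entered once for each gene. Because the alternatives refit the libraries in which the members were chosen, the kept direction is a description and not support. Of the 105 values, 7 moved by more than the spread between replicates. These were Csf2ra with DESeq2 (7.35), Csf1 with the length trend removed (−0.28), Csf3 with limma on log2(FPKM + 0.1) and log2(FPKM + 1) (4.39 and 1.92, set by the pseudocount), Csf2rb without LLC alone replicate 3 (10.50), and Csf2rb and Csf2rb2 when summed (4.76). Csf1 was past the threshold in 11 of 15 settings and Csf2 in 8 of 13. The other fitted members were past it in all of theirs, and nothing is read from that. Of these, 5 passed the filter on low counts only through LLC with BMSCs and so had to differ. The cause was not tested for the settings in which Csf1 and Csf2 were not called.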
